A study of Mus musculus with 18 samples.

Results

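The genes described here are 60 genes of DNA replication, the G1/S transition and mitosis, read in CD4 T cells of the mouse small intestine. They were chosen by symbol from a table of 38392 genes, and all 60 had a normalised count of at least 10 in at least 3 of 18 libraries, as did 15472 genes in all. By role they are 12 genes of origin licensing and the replicative helicase, 8 of polymerases, primase, clamp and clamp loader, 5 of nucleotide supply and methylation maintenance, 6 G1/S regulators and checkpoint genes, 15 mitotic cyclins, kinases and partners, 10 of centromere, kinetochore, spindle and cytokinesis, and 4 general proliferation markers.

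The study followed the descendants of 1 T-cell clone. Donors were C57BL/6 TNa TNb RAG1-/- Foxp3GFP mice, made by nuclear transfer from a regulatory T cell that had arisen outside the thymus, so that all their T cells carry 1 T-cell receptor and report Foxp3 by green fluorescence. Donor CD4 T cells that had neither CD8α nor the Foxp3 reporter were given to C57BL/6 TCRa-/- TCRb-/- hosts, which have no αβ T cells of their own. After 6 weeks, 3 populations were sorted from the intraepithelial compartment (IEL) and from the lamina propria (LP), with 3 libraries each: CD4+CD8α+ cells (DP), Foxp3+ regulatory cells (TR) and CD4+ cells negative for CD8α and Foxp3-GFP (SP), which had not converted. The groups are therefore IEL DP, IEL TR, IEL SP, LP DP, LP TR and LP SP, all from the same donor genotype and host genotype. The host is free of other αβ T cells, and what is seen in 1 clone need not hold for others.

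Before S phase, the MCM2-7 helicase is loaded at replication origins with the help of Cdc6 and Cdt1, and it is switched on with Cdc45 and the GINS complex. Primase, made of Prim1 and Prim2, lays the RNA primers that polymerase α extends, and the clamp Pcna, loaded by replication factor C, holds the later polymerases on DNA. In mitosis Cenpa, the centromeric histone H3 variant, marks where kinetochores form, Ndc80 and Nuf2 couple them to microtubules, and Bub1b and Cdc20 run and end the spindle checkpoint. Many of these genes are transcribed in waves, the first group largely under E2F factors and the second under the DREAM, B-Myb and FoxM1 complexes, and resting T cells hold most of them low.

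Libraries held between 5093955 and 8851347 recovered reads. The IEL TR libraries had 7108325, 8851347 and 6892918 reads, against 5742286, 5093955 and 5145590 in the LP TR libraries. Read totals do not show how many distinct RNA molecules a library sampled, and this was not tested. The T cell marker list summed to between 20298 and 27521 normalised counts in every library. Cd8a lay at 4879, 6340 and 6444 in the IEL DP libraries and at 3744, 3411 and 3364 in the LP DP libraries, against 3.15 to 113 elsewhere, and Foxp3 was highest in the TR libraries of each site. IEL TR library 1 stood apart from the other 2 of its group, with a weight of 0.17 in an alternative fit with a weight per library. There IEL TR libraries 2 and 3, at 0.68 and 0.53, also lay below every library of the other groups, the lowest being LP SP library 1 at 0.88. In the main model the 3 IEL TR libraries shared a group weight of 0.35. IEL TR libraries correlated with each other at 0.805 to 0.873, whereas libraries of any other group did so at 0.924 to 0.944. Role means, the medians over the 60 genes between the sites and several fold changes are also given without IEL TR library 1.

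As a whole the 60 genes were at their lowest in IEL TR and at their highest in LP TR. Their mean level, on the log2(normalised count + 1) scale, was 5.66 ± 0.59 in IEL DP, 4.75 ± 0.21 in IEL TR, 6.04 ± 0.31 in IEL SP, 6.31 ± 0.43 in LP DP, 6.66 ± 0.34 in LP TR and 6.17 ± 0.65 in LP SP (SD, n = 3 libraries each). The 3 IEL TR libraries, at 4.61 to 4.99, lay below every library of every other group, the nearest being IEL DP at 5.32, and the mean of IEL TR without library 1 was 4.80. This mean of logs gives genes near 0 as much weight as abundant ones. Summed normalised counts of the 60 genes overlapped within the epithelium. They were 9013, 8162 and 6202 in IEL TR, 8010, 10226 and 7460 in IEL DP, and 8377, 9665.5 and 10303 in IEL SP. Neighbours among the other 5 groups overlapped in their ranges. Between 44 and 49 of the 60 genes had at least 3 reads in an IEL TR library, against 51 to 60 in a library of the other groups. In sorted bulk samples, fewer dividing cells, less of these RNAs per cell and fewer RNA molecules sampled by a library cannot be told apart.

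**Figure D1:**
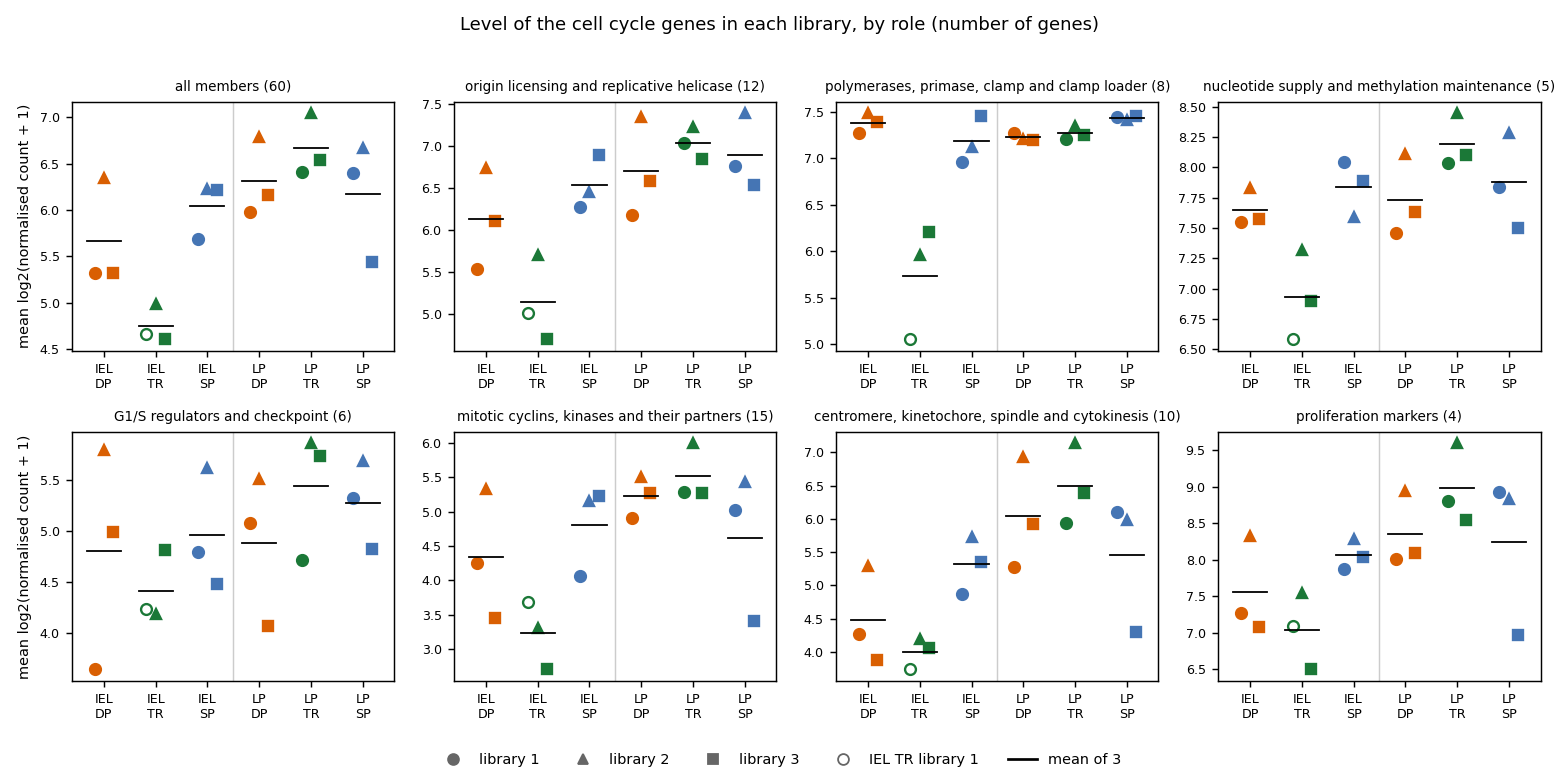
Mean log2(normalised count + 1) of the genes of each role (vertical axis) in each of 18 libraries, by group, with a line at the mean of 3 libraries and an open circle for IEL TR library 1. Polymerase and primase genes stand near 7.2 to 7.4 in every group except IEL TR, at 5.74, and IEL TR has the lowest mean in every role.

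The roles differed in how much they varied. The 8 polymerase, primase and clamp genes were nearly level in 5 groups, with means of 7.38 ± 0.11 in IEL DP, 7.18 ± 0.25 in IEL SP, 7.23 ± 0.04 in LP DP, 7.27 ± 0.07 in LP TR and 7.44 ± 0.02 in LP SP, and stood at 5.74 ± 0.61 in IEL TR, or 6.08 without IEL TR library 1. The 10 centromere and spindle genes ranged over more than 2 log2 units, at 4.48 ± 0.73 in IEL DP, 3.99 ± 0.23 in IEL TR, 5.32 ± 0.42 in IEL SP, 6.05 ± 0.83 in LP DP, 6.49 ± 0.61 in LP TR and 5.46 ± 1.01 in LP SP. Their summed normalised counts went the other way between IEL TR, at 1180, 764 and 675, and IEL DP, at 495, 573 and 346. In IEL SP those sums were 594, 831.5 and 799, which overlapped IEL TR. The 15 mitotic cyclins, kinases and partners had a mean of 3.23 ± 0.50 in IEL TR, against 5.52 ± 0.41 in LP TR. The 12 origin and helicase genes had 5.14 ± 0.51 in IEL TR, where IEL SP had 6.54 ± 0.32 and LP TR 7.04 ± 0.19. The 5 nucleotide supply genes, at 6.93 ± 0.37, the 6 G1/S genes, at 4.42 ± 0.35, and the 4 markers, at 7.04 ± 0.52, also had their lowest group mean in IEL TR. Without library 1 the IEL TR means of the other roles were 4.12 for the centromere and spindle genes, 3.00 for the mitotic genes, 5.20 for the origin genes, 7.11 for nucleotide supply, 4.50 for the G1/S genes and 7.02 for the markers. These were still below the mean of every other group. Single libraries overlapped in some roles, with IEL DP library 1 at 3.64 for the G1/S genes. Summed counts of the G1/S genes overlapped within the epithelium. They were 328, 236 and 252 in IEL TR, 155, 415 and 237 in IEL DP, and 202, 345 and 196 in IEL SP. Sums of the markers also overlapped, at 2693, 1635 and 1184 in IEL TR, and 1574, 2126 and 1188 in IEL DP.

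**Figure D2:**
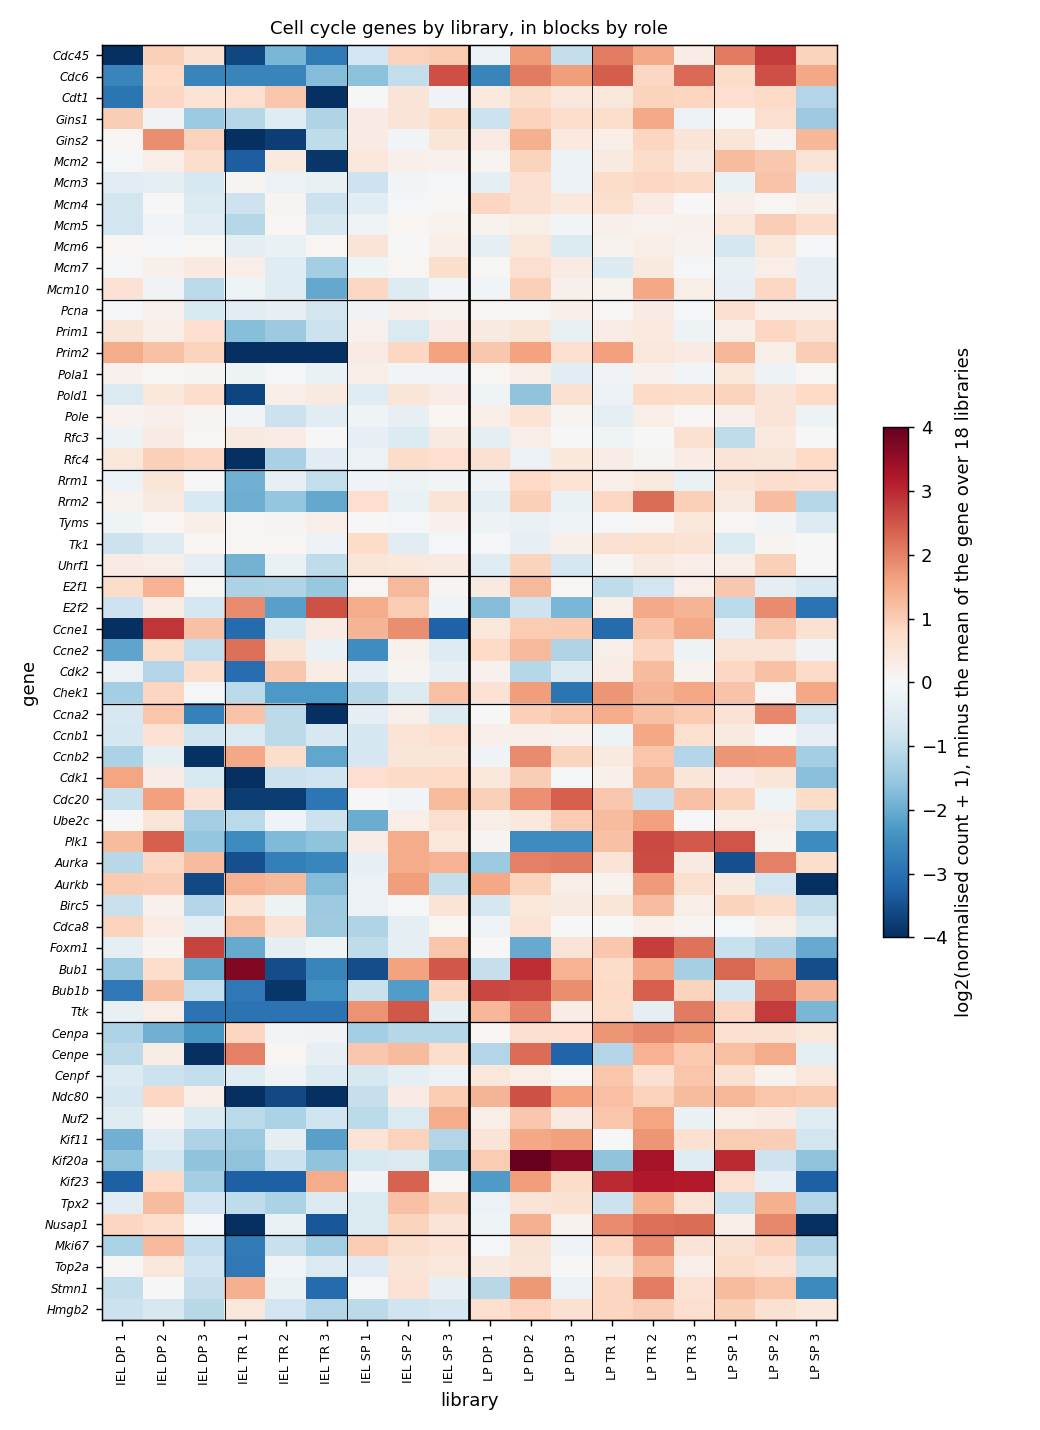
Each of the 60 genes (rows, in blocks by role) in each of the 18 libraries (columns), as log2(normalised count + 1) minus the gene's mean over all libraries; the colour scale ends at 4 in either direction. IEL TR columns are low for most genes, and within IEL TR library 1 has the highest Cenpe, Bub1, Ccne2 and Ccnb2.

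IEL TR library 1 had its own pattern within this module. It held 178 normalised counts of Cenpe, a kinetochore motor, 153 of Bub1, a checkpoint kinase, 230.1 of Ccne2, cyclin E2, and 212 of Ccnb2, cyclin B2. It held 3.15 of Cdk1, the kinase that cyclin B2 partners, and 3.15 of Pold1, the catalytic subunit of polymerase δ. These 6 genes were picked after their values were seen.

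The first question is whether the site, epithelium or lamina propria, went with cell cycle expression within each population. Cenpa, the chromatin protein Hmgb2 and the kinetochore protein Cenpf were lower in the epithelium in all 3 populations. In TR the difference extended to Prim2 and Ndc80, which were almost absent from IEL TR, and in DP to the helicase subunit Mcm4 and several spindle genes. No member was called higher in the epithelium in any population.

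Cenpa (ENSMUSG00000029177, GRCm38 chr5:30666777-30674830) had 179.5, 113 and 84.6 normalised counts in the IEL DP libraries, against 448, 662 and 678 in the LP DP libraries. It had 771, 400.1 and 388 in IEL TR, against 1446, 1634 and 1433 in LP TR. In IEL SP it had 167, 193 and 195, against 664, 648 and 586 in LP SP. Epithelial and lamina propria libraries did not overlap in any of the 3 populations, and TR was the highest population at each site. The log2 fold change was -2.28 ± 0.23 in DP, -1.61 ± 0.36 in TR and -1.77 ± 0.24 in SP (SE), with limma adjusted p-values of 9.27e-06, 0.0302 and 0.000196, in that order. The TR value without IEL TR library 1 was -1.93, with an adjusted p of 0.00481.

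Hmgb2 (ENSMUSG00000054717, chr8:57511907-57515999) encodes a DNA-bending protein abundant in dividing cells. Its values were 997, 1169 and 829.6 in IEL DP, against 2865, 3298 and 2738 in LP DP. In IEL TR they were 2451, 1074 and 809.5, against 3296, 3576 and 2859.8 in LP TR. In IEL SP they were 879, 1036 and 1100.4, against 3530.1, 2755 and 2397 in LP SP. All lamina propria libraries lay above the epithelial libraries of the same population, and IEL TR library 1 came nearest. The log2 fold change was -1.58 ± 0.19 in DP (adjusted p = 6.08e-05), -1.33 ± 0.30 in TR (adjusted p = 0.0316) and -1.51 ± 0.20 in SP (adjusted p = 0.000152; limma). Leaving out IEL TR library 1 gave -1.79 in TR, with an adjusted p of 0.000656.

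Cenpf (ENSMUSG00000026605, chr1:189640606-189688086), a large protein of the outer kinetochore, had 168, 132 and 122 in IEL DP, against 332, 293 and 257 in LP DP. It had 173, 219 and 167 in IEL TR, against 521, 373 and 528 in LP TR. IEL SP libraries had 156, 185 and 205, against 375, 270.2 and 333 in LP SP. The groups were again separate within each population, by a log2 fold change of -1.06 ± 0.18 in DP (adjusted p = 0.00122), -1.33 ± 0.28 in TR (adjusted p = 0.0219) and -0.83 ± 0.19 in SP (adjusted p = 0.0113; limma).

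**Figure D3:**
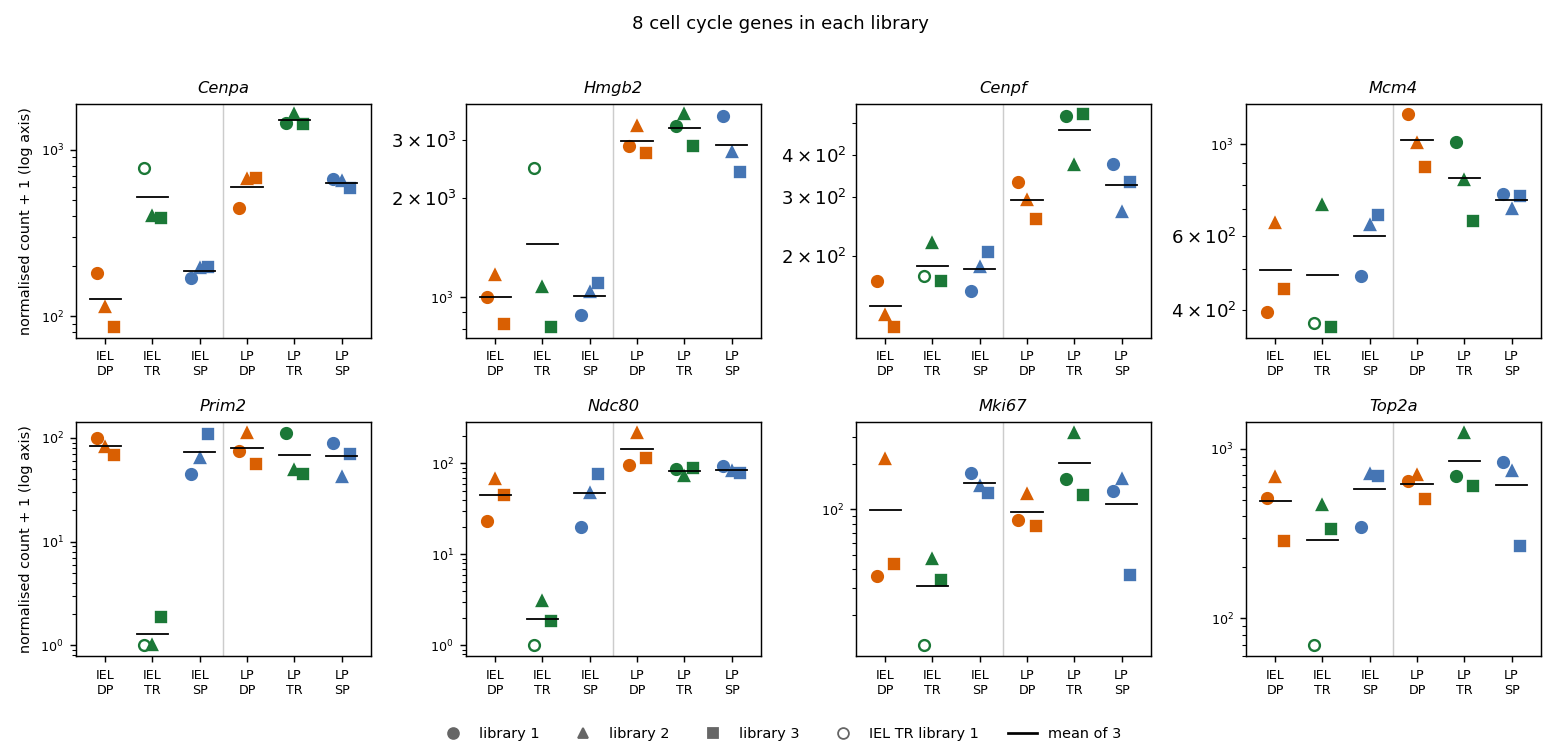
Normalised count + 1 (log axis) of 8 genes in each library, by group, with a line at the arithmetic mean of 3 libraries and an open circle for IEL TR library 1. Cenpa, Hmgb2 and Cenpf are lower in the epithelial groups, Prim2 and Ndc80 are near 0 in IEL TR, and Mki67 and Top2a spread widely within groups.

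The start regions of these genes are shown because they were lower together in the epithelium, with that of Mcm5, a helicase subunit called lower in IEL SP alone, as an example of the E2F forms. Each runs from 250 bases before to 30 bases after the RefSeq transcription start on GRCm38.p6, 5′ to 3′ on the strand of the gene. They lie at chr5:30666636-30666915 on the plus strand for Cenpa, chr8:57511593-57511872 on the plus strand for Hmgb2, chr1:189688057-189688336 on the minus strand for Cenpf and chr8:75109259-75109538 on the plus strand for Mcm5. Capitals mark, on either strand, the element TTTGAA, known as the cell cycle homology region, the CCAAT box, and the E2F forms TTTCCCGC, TTTGGCGC, TTTCGCGC and TTTGCCGC.
Cenpa: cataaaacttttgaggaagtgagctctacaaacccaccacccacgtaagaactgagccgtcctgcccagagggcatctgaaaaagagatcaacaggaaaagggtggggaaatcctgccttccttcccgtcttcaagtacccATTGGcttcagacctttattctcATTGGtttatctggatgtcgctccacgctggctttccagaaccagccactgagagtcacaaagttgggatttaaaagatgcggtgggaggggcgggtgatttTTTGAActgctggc
Hmgb2: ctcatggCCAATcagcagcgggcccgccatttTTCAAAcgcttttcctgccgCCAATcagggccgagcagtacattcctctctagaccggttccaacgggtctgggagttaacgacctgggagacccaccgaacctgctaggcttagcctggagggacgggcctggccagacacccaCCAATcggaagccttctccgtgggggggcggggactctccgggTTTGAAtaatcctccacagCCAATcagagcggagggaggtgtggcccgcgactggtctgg
Cenpf: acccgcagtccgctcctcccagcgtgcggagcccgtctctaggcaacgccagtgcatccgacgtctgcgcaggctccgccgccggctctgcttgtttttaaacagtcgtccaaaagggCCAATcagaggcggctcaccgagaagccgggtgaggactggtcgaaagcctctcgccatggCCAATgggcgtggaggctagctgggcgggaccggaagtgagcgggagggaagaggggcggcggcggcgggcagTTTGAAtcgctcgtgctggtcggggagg
Mcm5: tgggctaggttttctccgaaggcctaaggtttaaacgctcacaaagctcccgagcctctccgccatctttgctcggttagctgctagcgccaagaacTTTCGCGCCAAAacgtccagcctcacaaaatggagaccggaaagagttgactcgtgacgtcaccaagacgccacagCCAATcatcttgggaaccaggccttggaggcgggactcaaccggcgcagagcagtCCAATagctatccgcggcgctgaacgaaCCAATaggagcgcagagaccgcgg

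TTTGAA begins 17 bases after the start in Cenpa, 3 bases after it in Cenpf, and 218 and 30 bases before it in Hmgb2, each with CCAAT boxes upstream. Mcm5 has no TTTGAA in this window and has a pair of E2F forms that overlap each other, 153 and 149 bases before the start. RefSeq windows were found for 48 of the 60 genes, 51 windows in all, and for 32851 windows genome-wide. An E2F form was in 10 of the 51 windows (19.6%), against 2.12% of all windows. TTTGAA was in 16 (31.4%), against 17.2%, and CCAAT was in 38 (74.5%), against 36.1%. The E2F forms were in 9 of 28 windows of the G1/S and S phase roles and in 1 of 23 windows of the mitotic roles and markers, that of Cdk1, while TTTGAA was in 3 of the 28 and 13 of the 23. These are matches of letters, not binding sites.

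Across all members, 8 were lower and 0 higher in IEL DP than in LP DP, where 6.48% and 4.85% of all 15472 genes were called lower and higher. For IEL TR against LP TR the counts were 6 lower and 0 higher, against 1.47% and 0.343% of all genes. For IEL SP against LP SP they were 4 lower and 0 higher, against 5.51% and 3.79% of all genes, so that the share of members called lower in SP lay near that of all genes. The median log2 fold change of the 60 genes was -0.48 in DP, -1.53 in TR and -0.09 in SP, against 0.05, -0.05 and 0.03 over all genes, and without IEL TR library 1 that of TR was -1.49. In TR, 37 of the 60 genes had all 3 IEL libraries below all 3 LP libraries, and 0 had them all above, where 11.1% and 8.79% of all genes did. Ttk, a checkpoint kinase at 0 reads in all IEL TR libraries and at least 6.2-fold lower there than in LP TR against a floor of 3 reads per library, lies on the same side of that median at its bound.

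**Figure D4:**
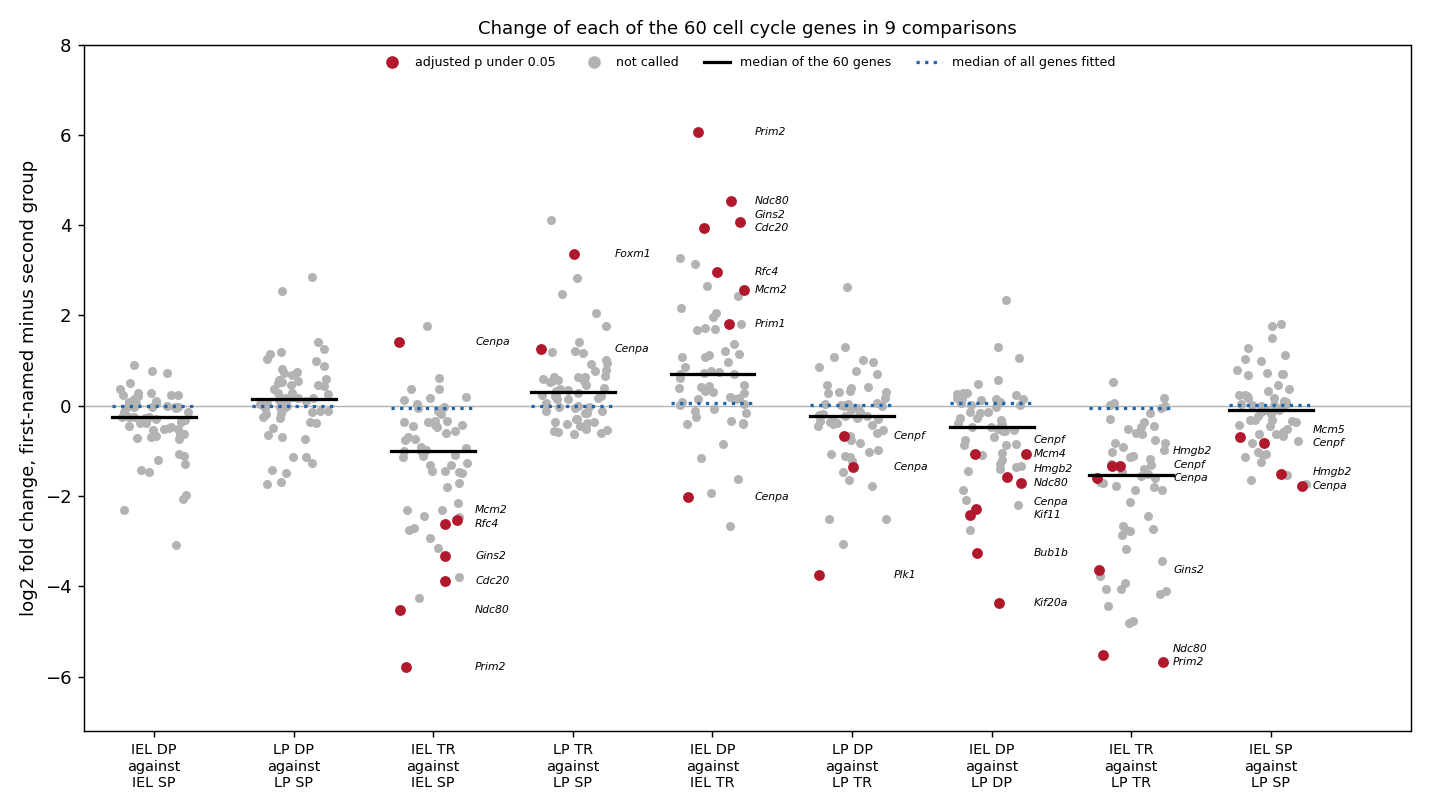
Log2 fold change of each of the 60 genes (vertical axis, first-named minus second-named group) in 9 comparisons, with called genes in red, the median of the 60 genes as a black line and the median of all genes fitted as a dotted blue line. The black line is farthest from the dotted line in IEL TR against LP TR, at -1.53.

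In TR, Prim2 and Ndc80 had the smallest adjusted p-values. Prim2 (ENSMUSG00000026134, chr1:33453810-33669795), the large primase subunit, had 0, 0 and 0.87 in IEL TR, against 111, 48.5 and 43.8 in LP TR. In reads this is 1 against 178, a ratio of 0.00403 with a 95% counting interval of 0.000101 to 0.0227. Ndc80 (ENSMUSG00000024056, chr17:71496100-71526857), the microtubule-binding kinetochore protein, had 0, 2.06 and 0.87 in IEL TR, against 85.5, 70.9 and 88.9 in LP TR. Neither gene overlapped between the sites in TR, and the fitted log2 fold changes were -5.68 ± 0.63 for Prim2 (adjusted p = 0.000219) and -5.52 ± 0.72 for Ndc80 (adjusted p = 0.000932; limma). Gins2, a subunit of the GINS complex, averaged 3.72 ± 5.85 in IEL TR and 33.2 ± 7.14 in LP TR (SD, n = 3 each), a log2 fold change of -3.65 ± 0.79 (adjusted p = 0.0262). Beside Prim2 and Ndc80, 7 further members, picked after their values were seen, averaged under 1 in IEL TR: Ttk at 0, Kif20a at 0.23, Cdc6 and Cdc20 at 0.29, Plk1 and Aurka at 0.52 and Bub1b at 0.93. They averaged 10.35 to 42.9 in LP TR, and none of the 7 was called between the sites.

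The TR calls of Cenpa, Hmgb2, Cenpf and Gins2 were lost when some libraries were left out. Leaving out IEL TR library 2 gave adjusted p-values of 0.252, 0.23, 0.124 and 0.218, and leaving out LP TR library 1 gave 0.0657, 0.0735, 0.0645 and 0.0523. Without IEL TR library 3 those of Cenpa, Hmgb2 and Cenpf were 0.214, 0.245 and 0.174, and without IEL TR library 1 that of Gins2 was 0.0605, at a log2 fold change of -2.94. LP TR library 2 (Cenpa 0.0698, Hmgb2 0.0734, Gins2 0.0625) and LP TR library 3 (Cenpa 0.0505, Cenpf 0.0532) also carried calls. With the fit restricted to IEL TR and LP TR, 3 of the 60 genes were called. On simulated counts most calls of the weighted fit in comparisons with IEL TR were wrong, so an adjusted p under 0.05 there does not hold the error rate it names.

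In DP, Mcm4, a subunit of the replicative helicase, had 394, 647 and 446 in IEL DP, against 1180.3, 1009 and 882 in LP DP, with no overlap and a log2 fold change of -1.07 ± 0.21 (adjusted p = 0.00336). Of the 10 centromere and spindle genes, 5 were called lower, the most of any role. The 5 include Kif20a, which passed the filter only through LP DP, where it was high. Beside Cenpa and Cenpf they were the spindle motor Kif11, with 17.1, 48.8 and 27.9 in IEL DP against 96.9, 195 and 210.0 in LP DP, the cytokinesis motor Kif20a, with 0, 0.83 and 0 against 5.15, 67.1 and 37.7, and Ndc80. The checkpoint protein Bub1b had 1.07, 32.3 and 6.51 in IEL DP, against 93.8, 90.04 and 52.7 in LP DP. Their IEL DP libraries all lay below the LP DP libraries. Log2 fold changes were -2.43 ± 0.61 for Kif11 (adjusted p = 0.0174), -1.71 ± 0.46 for Ndc80 (0.0273), -4.37 ± 1.22 for Kif20a (0.0307) and -3.27 ± 0.93 for Bub1b (0.0341; limma, adjusted p-values).

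Kif20a rests on 1 read in IEL DP, a ratio of 0.00804 (0.000202 to 0.0456) in reads, and it shares exon bases with Cdc23 on the other strand. It reached 10 in only 4 of the 18 libraries, LP DP libraries 2 and 3 among them, so it passed the filter through the group where it was higher. It is 1 of the 8 members counted as lower in IEL DP. Kif11, Kif20a, Ndc80 and Bub1b each lost the call without IEL DP library 1, IEL DP library 3, LP DP library 2 or LP DP library 3, at adjusted p-values of 0.0505 to 0.124. Kif20a also lost it without IEL DP library 2 (0.0748) and Bub1b without LP DP library 1 (0.0873).

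In SP the call beside Cenpa, Hmgb2 and Cenpf was Mcm5, with 259, 307 and 321 in IEL SP against 396, 575 and 481 in LP SP, a log2 fold change of -0.70 ± 0.21 (adjusted p = 0.0438). The groups did not overlap, but the call was lost in 17 of 27 alternative settings, among them every one that left out an IEL SP library (0.0635 to 0.155) or LP SP library 2 or 3 (0.161 and 0.142). Cenpf lost its call in SP without IEL SP library 1 (0.0585), LP SP library 1 (0.0518) or LP SP library 3 (0.0585). LP SP library 3 was the lowest of its group over the 60 genes, at 5.44, and without it the median of the 60 genes was -0.5 and 2 members were called.

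The second question is how the regulatory cells compared with the unconverted cells beside them. In the epithelium 6 members, led by Prim2 and Ndc80, were lower in IEL TR, and Cenpa was higher. In the lamina propria Cenpa was higher in LP TR, and no member was called lower. The mitotic transcription factor Foxm1 was also called higher, but it passed the filter through LP TR and its call was weak.

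For IEL TR against IEL SP, 1 member was called higher and 6 lower, where 2.37% and 2.58% of all genes were. The 6 lower genes came from the replication fork and from mitosis: Prim2, Gins2, Mcm2 and the clamp-loader subunit Rfc4, with Ndc80 and the anaphase activator Cdc20. Of the 60 genes 51 had a log2 fold change below 0, the median was -1.01 against -0.05 over all genes, and 20 had all IEL TR libraries below all IEL SP libraries and 1 had them above, as did 11.7% and 12.6% of all genes.

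Prim2 had 0, 0 and 0.87 in IEL TR, against 44.1, 62.8 and 108 in IEL SP. That is 1 read against 230, a ratio of 0.00381 (9.61e-05 to 0.0215). Its fitted log2 fold change was -5.78 ± 0.62 (adjusted p = 3.99e-05; limma) and it was called in all 27 alternative settings. Ndc80, at 0, 2.06 and 0.87 in IEL TR, had 19.0, 45.8 and 74.7 in IEL SP, a log2 fold change of -4.53 ± 0.71 (adjusted p = 0.0017, and 0.0568 with those groups fitted alone). Both were thus close to 0 in IEL TR while every IEL SP library held them. Cenpa went the other way, with 771, 400.1 and 388 in IEL TR against 167, 193 and 195 in IEL SP, a log2 fold change of 1.41 ± 0.35 (adjusted p = 0.031).

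Rfc4 had 2.1, 37.8 and 68.0 in IEL TR, against 80.1, 157 and 148 in IEL SP (log2 fold change -2.62 ± 0.69, adjusted p = 0.0415), and without IEL TR library 1 the log2 fold change was -1.26. Mcm2, a helicase subunit, had 13.7, 185 and 8.71 in IEL TR, against 190.3, 165 and 159.5 in IEL SP (log2 fold change -2.53 ± 0.68, adjusted p = 0.0444). IEL TR library 2 lay within the IEL SP range for Mcm2, so this call rests on libraries 1 and 3. Gins2 had 0, 0.69 and 10.5 in IEL TR, against 28.0, 20.2 and 31.4 in IEL SP (log2 fold change -3.34 ± 0.78, adjusted p = 0.0214, and -2.62 without IEL TR library 1). Cdc20, with 1 read in IEL TR against 62 in IEL SP (ratio 0.0141, 0.000352 to 0.0818), had a log2 fold change of -3.88 ± 1.00 (adjusted p = 0.0377). Gins2, Rfc4 and Cdc20 share exon bases with Gse1, Eif4a2 and Elovl1 on the other strand, and whether reads were counted by strand is not given in the sources used here.

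The calls of Cenpa, Gins2, Cdc20, Rfc4 and Mcm2 each depended on libraries of the groups compared. Without IEL TR library 1, Cenpa (0.0588), Gins2 (0.0545), Rfc4 (0.0905) and Mcm2 (0.146) were no longer called, and the number called was 3, with a median of -1.09. Without IEL TR library 2, Cenpa (0.12), Gins2 (0.175), Cdc20 (0.224) and Rfc4 (0.0835) were not, and without library 3, Cenpa (0.0975), Cdc20 (0.14) and Mcm2 (0.316) were not. Leaving out IEL SP library 1 (Cenpa 0.0685, Cdc20 0.054, Mcm2 0.094), 2 (Rfc4 0.0878, Mcm2 0.0746) or 3 (Cdc20 0.0807, Rfc4 0.0832, Mcm2 0.0692) also ended calls, as did leaving out most libraries of the other groups for Rfc4 and Mcm2 (0.0504 to 0.0562). With IEL TR and IEL SP fitted alone, 1 member was called.

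For LP TR against LP SP, 2 members were called higher and 0 lower, where 4.56% and 3.63% of all genes were, so the share of members called was not above that of all genes. Cenpa had 1446, 1634 and 1433 in LP TR, against 664, 648 and 586 in LP SP, with no overlap, a log2 fold change of 1.25 ± 0.25 (adjusted p = 0.00503). Foxm1, which drives the mitotic genes, had 7.57, 26.1 and 17.0 in LP TR, against 1.17, 0.75 and 0 in LP SP. That is 42 reads against 2, a ratio of 25.2 (6.55 to 215), and a log2 fold change of 3.37 ± 0.94 (adjusted p = 0.0376). The Foxm1 call was lost without each of the 6 libraries compared (0.0537 to 0.157) and with edgeR on recovered reads (0.0793), and Foxm1 shares exon bases with Tex52 and Gm44596 on the same strand. It reached 10 in only 3 of the 18 libraries, LP TR libraries 2 and 3 among them, so it passed the filter through the group where it was called higher. Of the 60 genes 40 had a log2 fold change above 0 and the median was 0.31, but without LP SP library 3 the median was 0.04 and 1 member was called.

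The third question is how the CD8α+ cells compared with the other populations at their site. IEL DP cells held more of the primase subunits, Ndc80, Gins2, Rfc4, Cdc20 and Mcm2 than IEL TR and less Cenpa. LP DP cells held less Cenpa, Cenpf and Plk1 than LP TR. Against the unconverted SP cells no member was called at either site.

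For IEL DP against IEL TR, 7 members were called higher and 1 lower, where 3.3% and 3.24% of all genes were. The median of the 60 genes was 0.71, against 0.06 over all genes. These comparisons share the IEL TR libraries with those above, so the same low values enter again. Prim2 had 99.4, 80.3 and 67.0 in IEL DP, against 0, 0 and 0.87 in IEL TR, a ratio of 289 in reads (51.5 to 11500) and a log2 fold change of 6.06 ± 0.62 (adjusted p = 1.84e-05). Its partner Prim1, the catalytic primase subunit, had 217, 184 and 245 in IEL DP, against 46.2, 55 and 83.65 in IEL TR. Prim1 did not overlap either, and its log2 fold change was 1.82 ± 0.41 (adjusted p = 0.0147).

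Ndc80 had 22.4, 66.2 and 43.7 in IEL DP, against 0, 2.06 and 0.87 in IEL TR, a log2 fold change of 4.53 ± 0.71 (adjusted p = 0.00108). Gins2 averaged 49.4 ± 29.8 in IEL DP and 3.72 ± 5.85 in IEL TR, Rfc4 159.6 ± 27.2 and 36.0 ± 32.97, Cdc20 22.7 ± 18.1 and 0.29 ± 0.50, and Mcm2 179.6 ± 46.5 and 69.1 ± 100.3 (SD, n = 3 each, IEL DP before IEL TR). Their adjusted p-values were 0.00491, 0.0174, 0.0292 and 0.0352 (limma). Cenpa was the member called lower, with 179.5, 113 and 84.6 in IEL DP against 771, 400.1 and 388 in IEL TR, a log2 fold change of -2.03 ± 0.35 (adjusted p = 0.0022). Without IEL TR library 1, 7 members were called, Mcm2 was not (0.129), and the log2 fold changes of Rfc4 and Gins2 were 1.62 and 3.34, against 2.97 and 4.06 with it. Without library 2, Gins2 (0.0687), Prim1 (0.121) and Cdc20 (0.189) were not, and without library 3, Prim1 (0.0532), Cdc20 (0.115) and Mcm2 (0.27) were not. IEL DP libraries 2 and 3 carried Cdc20 (0.0708 and 0.0568) and Mcm2 (0.0683 and 0.081), and the fit of these 2 groups alone called 3 members, not including Cenpa (0.0768), Rfc4 (0.173), Gins2 (0.0979), Cdc20 (0.117) or Mcm2 (0.223).

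For LP DP against LP TR, 0 members were called higher and 3 lower, where 5.58% and 8.19% of all genes were, so the share of members called lower was not above that of all genes. Cenpa, at 448, 662 and 678 in LP DP against 1446, 1634 and 1433 in LP TR, differed by a log2 fold change of -1.36 ± 0.23 (adjusted p = 0.000954), and it kept its call in all 27 alternative settings. Cenpf averaged 294 ± 37.4 in LP DP and 474 ± 87.7 in LP TR (SD, n = 3 each), a log2 fold change of -0.68 ± 0.19 (adjusted p = 0.0223). Plk1, the polo kinase of mitosis, had 5.15, 0 and 0 in LP DP, against 11.9, 34.8 and 30.4 in LP TR (log2 fold change -3.74 ± 1.13, adjusted p = 0.0382). Both calls were weak: Cenpf lost its own without LP DP library 2 (0.0566) or 3 (0.0918) or LP TR library 1 (0.105) or 3 (0.0855). Plk1, which shares exon bases with Gm44985, lost its own without LP DP library 2 (0.124) or 3 (0.127), any LP TR library (0.0628 to 0.125), IEL DP library 1 (0.0527) or LP SP library 2 (0.0501).

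For IEL DP against IEL SP and for LP DP against LP SP, 0 members were called, where 0.291% and 0.789% of all genes were called in either direction. Unadjusted limma p-values under 0.05 numbered 5 in the epithelium and 4 in the lamina propria, and edgeR and DESeq2 on the recovered reads called 0 members in either comparison. The median of the 60 genes was -0.26 in the epithelium and 0.14 in the lamina propria. Mki67, the marker most used for dividing cells, had 35.3, 214 and 42.8 in IEL DP against 174, 142 and 128 in IEL SP, a log2 fold change of -1.08 (adjusted p = 0.753). IEL DP library 2 alone exceeded the IEL SP libraries. A p above the threshold does not show that DP and SP were alike.

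The best known markers did not pass the threshold in any comparison. Mki67 had 11.6, 46.1 and 33.1 in IEL TR, against 157, 322 and 124 in LP TR. The libraries did not overlap, but the spread was wide, with a log2 fold change of -2.77 (95% interval -4.77 to -0.77, adjusted p = 0.177), or -2.21 without IEL TR library 1. Top2a, the topoisomerase that untangles sister chromatids, had 68.3, 465 and 335 in IEL TR, against 690.1, 1249 and 604 in LP TR, a log2 fold change of -1.86 (-3.38 to -0.35, adjusted p = 0.253). Here too every IEL TR library was below every LP TR library, with IEL TR library 1 the lowest by far, and without it the log2 fold change was -1.02 (adjusted p = 0.504).

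Several abundant replication genes were called in no comparison. Tyms, which makes thymidylate for DNA synthesis, averaged 634 in IEL TR and 641 in LP TR, with a 95% interval of -0.5 to 0.5 on the log2 scale. The clamp Pcna averaged 744 in IEL TR and 1131 in LP TR (log2 fold change -0.61, -1.16 to -0.05, adjusted p = 0.32), and the helicase subunit Mcm6 543 and 694 (-0.37, -1.20 to 0.46). Pola1, the catalytic subunit of polymerase α, averaged between 251 and 309 in all 6 groups. Prim2, which works with Pola1 in the same complex, was at 0 to 0.87 in the IEL TR libraries and at 41.05 to 111 in all others. The ribonucleotide reductase subunit Rrm1 averaged 450.9 in IEL DP and 218 in IEL TR, a log2 fold change of 1.15 that was not called (adjusted p = 0.0985) and was 0.73 without IEL TR library 1. Cdk2, the S phase kinase, averaged 44.6 to 114 over the groups, Ccne2 32.4 to 114 (with 56.2 in IEL TR without library 1), the survivin gene Birc5 82.5 to 196 and Ccnb2 29.4 to 175, and none of the 4 was called in any comparison.

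Whether the difference between TR and SP itself depended on the site was tested as an interaction. For TR, 0 members were called higher and 1 lower, where 0.0517% and 0.0711% of all genes were. It was Prim2, whose difference between TR and SP in the epithelium, minus that in the lamina propria, was -5.75 ± 0.76 log2 units (95% interval -7.37 to -4.13, limma adjusted p = 0.006). With 10 in place of 1 added before the log, it was not called (adjusted p = 0.0968). Of the 60 genes 54 lay below 0, with a median of -1.57 (-1.46 without IEL TR library 1) against -0.04 over all genes, and 16 had an unadjusted p under 0.05. Ndc80, at -4.50, had an adjusted p of 0.0723. Without IEL TR library 1 the Prim2 value was -5.6 (adjusted p = 0.0068). For DP, 0 members and 0% of all genes were called, 3 members had an unadjusted limma p under 0.05, and edgeR and DESeq2 also called 0.

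Other genes of the pathway were read from 5 further lists. They hold 16 cyclin D, CDK4/6 and E2F entry genes, 45 other replication genes, 27 inhibitors and quiescence genes, 25 nucleotide synthesis and growth genes and 50 other mitosis genes among those fitted. Among the inhibitors, 1 was higher and 8 lower in IEL DP than in LP DP, 0 and 2 in IEL TR against LP TR, and 3 and 9 in IEL SP against LP SP. Over all genes the shares higher and lower were 4.85% and 6.48% in DP, 0.343% and 1.47% in TR, and 3.79% and 5.51% in SP. The quiescence gene Tob2 averaged 489 in IEL DP and 1142 in LP DP (log2 fold change -1.25, adjusted p = 5.3e-05), 501 in IEL TR and 1467 in LP TR (-1.55, 0.00234), and 465 in IEL SP and 1125 in LP SP (-1.27, 7.73e-05). Lin54, the DNA-binding subunit of the DREAM complex, which recognises TTTGAA-like elements, averaged 71.6 in IEL DP and 535 in LP DP, 64.0 in IEL TR and 529.9 in LP TR, and 119.8 in IEL SP and 602 in LP SP. Its log2 fold changes were -2.95, -3.03 and -2.36 (adjusted p = 3.74e-05, 0.00731 and 0.000509). In TR the Lin54 call was lost without IEL TR library 2 (0.0895) or 3 (0.0506).

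Lmnb1 and Odc1 were lower in the epithelium in all 3 populations. Lmnb1, lamin B1 of the nuclear lamina, had 309, 367 and 340.4 in IEL DP, against 751, 912 and 685 in LP DP. It had 297, 273 and 288 in IEL TR, against 1593, 1566 and 1194 in LP TR, and 299, 276 and 221 in IEL SP, against 1407, 1069.5 and 1032 in LP SP. No epithelial library overlapped the lamina propria libraries of its population, with log2 fold changes of -1.20, -2.33 and -2.13 (adjusted p = 0.000117, 0.000143 and 4.39e-07). Odc1, the first enzyme of polyamine synthesis, averaged 186 in IEL DP and 1105 in LP DP, 1704 in IEL TR and 9794 in LP TR, and 356 in IEL SP and 3562 in LP SP. It was the 1 gene of the 5 lists called between LP DP and LP SP (log2 fold change -1.73, adjusted p = 0.00417, and 0.0999 with those groups alone). Other genes of the lists went the other way between the sites. Ccnd2, of the entry genes, was higher in the epithelium in DP and SP, by 0.67 and 0.64 (limma adjusted p = 0.00213 and 0.00499). The replication gene Mcmbp was higher by 0.76 in DP and 0.59 in SP (0.00278 and 0.0221). The Mcmbp call in SP was lost in 7 of 27 alternative settings. No entry or replication gene was called higher in IEL TR than in LP TR.

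**Figure D5:**
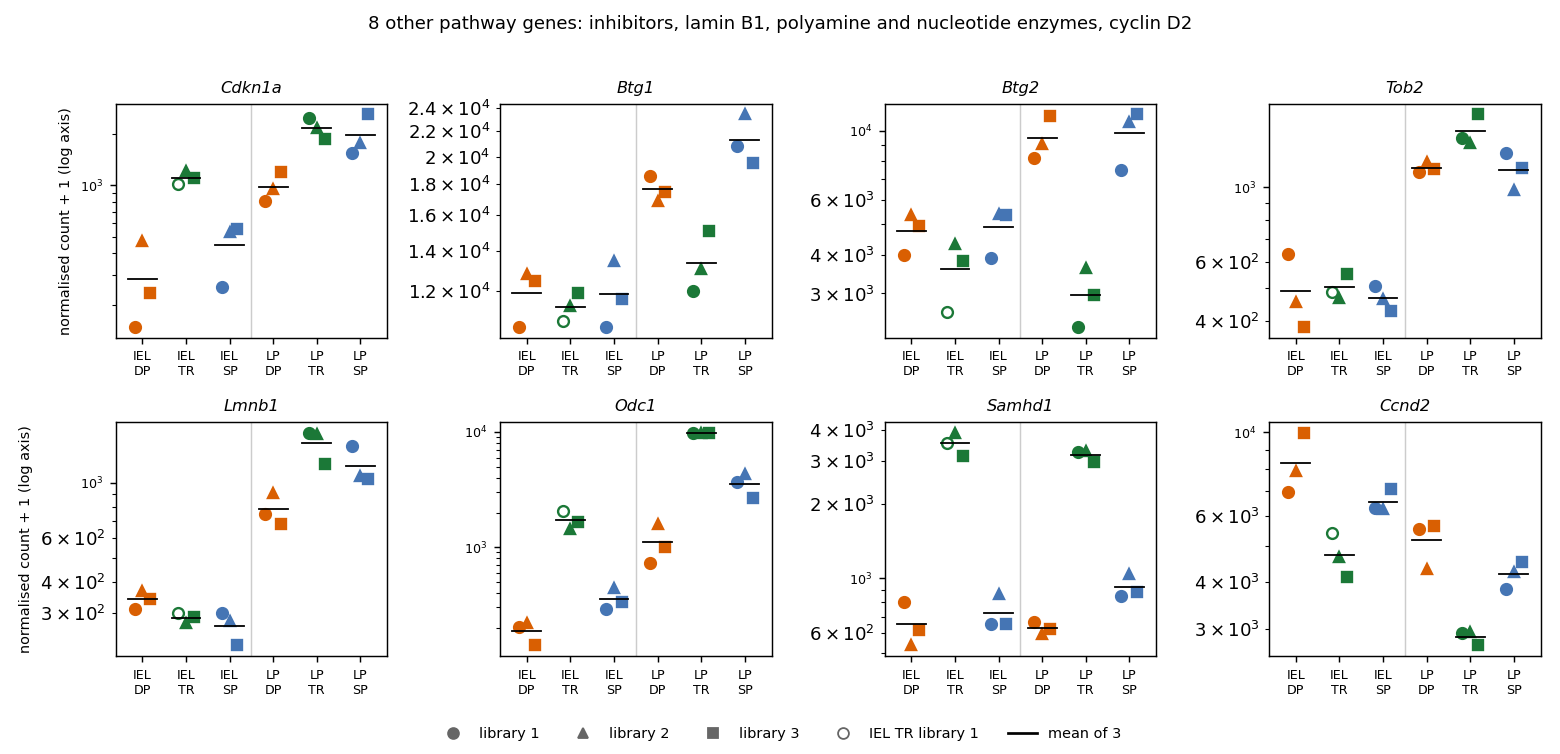
Normalised count + 1 (log axis) of 8 genes of the other pathway lists in each library, by group, with a line at the arithmetic mean and an open circle for IEL TR library 1. Lmnb1, Tob2 and Odc1 are lower in the epithelium than in the lamina propria in all 3 populations, and Samhd1 is higher in TR at both sites.

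Samhd1, Smc4, Lig1, H2afz and Odc1 were higher in TR than in SP at both sites. Samhd1, which breaks down the nucleotides of DNA, had 3537, 3902 and 3140.4 in IEL TR, against 651, 866 and 654 in IEL SP, and 3246, 3298 and 2965 in LP TR, against 845, 1045 and 879.7 in LP SP. TR libraries lay above SP and DP libraries at each site, with log2 fold changes against SP of 2.29 in the epithelium (adjusted p = 1.03e-05) and 1.78 in the lamina propria (2.28e-06). Smc4, the condensin core, averaged 5059 in IEL TR and 2091 in IEL SP (log2 fold change 1.27, adjusted p = 0.000109) and 3878 in LP TR and 2287 in LP SP (0.77, 0.000293). Lig1, the ligase that joins Okazaki fragments, averaged 397.5 in IEL TR and 111 in IEL SP (1.79, 0.0237) and 511 in LP TR and 182.5 in LP SP (1.48, 0.00571). In the epithelium the Lig1 call was lost without IEL TR library 2 (0.23) or 3 (0.116) or IEL SP library 1 (0.0561). H2afz averaged 4869 in IEL TR and 2078 in IEL SP (1.19, limma adjusted p = 0.0132). In LP TR and LP SP it averaged 6723 and 2705 (1.31, 0.000298). Its epithelial call was lost without IEL TR library 3 (0.14). For Odc1 the log2 fold changes were 2.26 in the epithelium (0.00242) and 1.49 in the lamina propria (0.00239). Of 50 other mitosis genes, 2 were called higher and 4 lower in IEL TR than in IEL SP, and 39 lay below 0 (median log2 fold change -1.18), where 2.37% of all genes were higher and 2.58% lower. Of 45 other replication genes, 1 was called higher and 4 lower, and 36 lay below 0 (median -0.55). The mitotic gene Ckap2 had 2 reads in IEL TR, against 98 in IEL SP (ratio 0.0179, 0.00214 to 0.0664, adjusted p = 0.0074, or 0.0978 without IEL TR library 2).

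Btg2, an antiproliferative factor, was lower in LP TR than in LP SP (means 2974 and 9827, log2 fold change -1.72, adjusted p = 7.33e-05) and higher in LP DP than in LP TR (9469 and 2974, 1.68, 2.82e-05). Ccnd2, cyclin D2, was higher in IEL DP than in IEL TR (8275 and 4731, 0.80, 0.0182) and in LP DP than in LP TR (5164 and 2860, 0.84, 0.000261). The epithelial Ccnd2 call was lost without IEL TR library 2 (0.129) or 3 (0.163). Cdkn1a, of the inhibitors, averaged 284 in IEL DP and 1105 in IEL TR (log2 fold change -2.12, limma adjusted p = 0.0276). Its call was lost without IEL TR library 2 (0.182) or 3 (0.148), or IEL DP library 1 (0.05) or 3 (0.0553). Of the other replication genes, Pole2, the small subunit of polymerase ε, had 0 reads in all 3 IEL TR libraries, and was at least 12.6-fold higher in IEL DP and at least 7.43-fold lower in IEL TR than in IEL SP, against a floor of 3 reads per library (adjusted p = 0.0082 and 0.0321). Chaf1a, of the chromatin assembly factor, had 2 reads in IEL TR, against 99 in IEL SP (ratio 0.0177, 0.00212 to 0.0657, adjusted p = 0.0252). The Pole2 and Chaf1a calls were lost without IEL TR library 2 (0.0807 to 0.186). Pole2 also lost its call without IEL TR library 3 (0.0703 for IEL DP against IEL TR, 0.162 for IEL TR against IEL SP) and, against IEL SP, without IEL SP library 2 (0.0685) or 3 (0.0669). Chaf1a lost its call against IEL SP without IEL TR library 3 (0.0923) or IEL SP library 1 (0.0565) or 2 (0.0581).

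The 13 epithelial markers summed to 517 to 1359 in IEL DP, 471 to 620 in IEL TR and 457 to 735 in IEL SP, against 299 to 510.4 in LP DP, 202 to 381 in LP TR and 213 to 518 in LP SP. The 12 genes of the list for the intestinal crypt summed to 335 to 1806 in IEL DP, 266 to 791 in IEL TR and 288 to 1637 in IEL SP. In the lamina propria they summed to 396 to 493 in LP DP, 296 to 337 in LP TR and 346 to 445 in LP SP. The highest sums were those of IEL DP library 1, at 1806, and IEL SP library 1, at 1637. This list includes Reg3b, Reg3g, Lyz1 and Defa24, so its sum does not measure dividing cells alone. The 9 B and plasma cell markers summed to 9.45 to 264 in IEL TR and 102 to 573 in LP TR, against 2 to 52.7 in the other groups. The 7 innate lymphoid and mast cell genes, among them Gata3 and Id2, which T cells also express, summed to 10364 to 12292 in IEL DP, 6722 to 9143 in IEL TR and 11680.3 to 13048 in IEL SP, and to 8479 to 9666 in LP DP, 13765 to 23142 in LP TR and 7546 to 11109 in LP SP. They were lowest in IEL TR within the epithelium and highest in LP TR. The 10 myeloid markers summed to 158 to 455 in LP SP and 53.6 to 305 elsewhere, and the 8 stromal markers to 97.03 to 129 in LP SP and 4.97 to 95.8 elsewhere. Their part in the results was not tested.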

How the data were processed

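RNA of 18 libraries was made with Nextera XT after bead purification, per the labels, and TopHat, HTSeq and the mm10 build (GRCm38) are named, without versions, in the submitters' processing notes. The deposited signal, called a normalised count here, is a read count times 1 factor per library: 100% of values were whole multiples of a step, within 0.1 of a step. How the authors set the factors, and whether counting used strand, is not given in the sources used here. Dividing by the step gave 5093955 to 8851347 reads per library (median 5903164.5). Because PCR copies were not told apart by molecular identifiers, intervals and floors cover counting error only.

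Values were taken as log2(normalised count + 1), which understates changes of low genes, and 1 limma 3.58.1 model (R 4.3.3) covered the 15472 genes that reached 10 in 3 or more libraries, fitted over all 18 libraries with a weight per group, trended and robust. A call needs a p under 0.05 after Benjamini-Hochberg adjustment over all 15472. There were 9 pairwise comparisons and 2 interactions. A fitted fold change of a gene with almost no reads in a group depends on the added 1 and is no bound. On simulated counts most calls of the weighted fit in comparisons with IEL TR were wrong, and so was a smaller share, still well over the nominal rate, in fits of only the groups compared, whose counts are given beside them. In comparisons without IEL TR the weighted fit also made more wrong calls than the nominal rate allows. The share ran from 13 of 131 calls for IEL DP against IEL SP to 28 of 140 for LP DP against LP TR. The labels call libraries biological replicates without giving the animals, so a p-value here reflects only how much libraries vary. An exact permutation test of 3 against 3 cannot go below 0.1, so none was used.

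Alternatives were no weights, a weight per library, only the groups compared, each library left out, edgeR 4.0.16 and DESeq2 1.42.0 on the recovered reads, an added 10, no filter, equal library totals and a replicate block. Genes named are the 2 most abundant of each role, Mki67, Top2a and those called (the 8 with the smallest p where more were). Of the other lists, they were taken from called genes among the 3 with the smallest p per list and comparison. Not all of these are described. Members and lists were chosen with earlier results of these data known. Of the innate lymphoid and mast cell markers, 1 gene is not reported here. Gene positions are from GENCODE M21, and start regions from RefSeq (GRCm38.p6). Pcna, Tyms, Ccnb1 and Ccnb2 have annotated pseudogenes that could share their reads.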

Additional observations from a re-analysis of the deposited data

Results flagged for a closer look

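Prim2 stood out because the difference between regulatory and unconverted cells was not the same at both sites: the interaction of population and site was -5.75 on the log2 scale, with an adjusted p of 0.006 from limma, and it was not called with 10 in place of 1 added before the log (0.0968). It had 0, 0 and 0.87 normalised counts in the IEL TR libraries, against 44.1, 62.8 and 108 in the IEL SP libraries, and 111, 48.5 and 43.8 in the LP TR libraries, against 89.0, 41.05 and 69.5 in the LP SP libraries. Its annotated exons overlap no other gene.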

How the results depend on the processing

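Of 39 calls of members, 13 held in all 27 alternatives and 26 were lost in at least 1, with 0 reversed. Of 77 calls of other named genes, 46 held throughout. For IEL TR against IEL SP, 7 members were called, but 14 without weights, 1 with only those groups, 18 with DESeq2, 4 with 10 added, and 3 to 7 leaving out 1 library. For IEL DP against IEL TR, 8 were called, but 3 with only those groups, 16 with DESeq2, and 5 to 8 leaving out 1 library. For IEL TR against LP TR, 6 were called, but 15 without weights, 3 with only those groups, 14 with edgeR, 27 with DESeq2, and 2 to 8 leaving out 1 library. For LP TR against LP SP, 2 were called, but 1 with edgeR and 1 to 4 leaving out 1 library. For LP DP against LP TR, 3 were called, but 1 with edgeR, 1 with no filter, and 1 to 4 leaving out 1 library. For IEL DP against LP DP, 8 were called, but 4 without weights, 4 with edgeR, and 4 to 9 leaving out 1 library. For IEL SP against LP SP, 4 were called, and 2 to 4 leaving out 1 library. The interaction of TR with site gave 1 member, but 2 without weights, with a weight per library, with edgeR, with no filter and with the replicate block, 4 with DESeq2, 0 with 10 added, and 1 to 2 leaving out 1 library. DP against SP at either site, and the interaction of DP with site, stayed at 0 to 0 when libraries were left out. The causes were not tested.

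Equal library totals moved the median of all genes by -0.20 for IEL TR against IEL SP, 0.24 for IEL DP against IEL TR and 0.14 for IEL DP against LP DP, and split the calls of all genes into 213 higher and 433 lower, 589 and 301, and 940 and 680, where the normalisation as deposited gave 367 and 399, 511 and 502, and 750 and 1002. The main model did not pair libraries that share a replicate number. Over all fitted genes, the residuals of the 45 same-number pairs correlated by 0.00053 to 0.0887, with 0 over 0.1. Their median was 0.0385, against -0.0195 for different numbers, and 18 of 18 libraries were nearest to their own number. Libraries of the same number thus shared a small part of their variation, and its source was not tested. With the replicate block the counts were 7 for IEL TR against IEL SP, 3 for LP TR against LP SP, 9 for IEL DP against IEL TR, 3 for LP DP against LP TR, 7 for IEL TR against LP TR, 9 for IEL DP against LP DP, 5 for IEL SP against LP SP, 2 for the interaction of TR with site, and 0 for the others.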

Other observations

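In each of the 6 groups, the library with the highest mean log2 level of the 60 genes was replicate 2. Replicate 2 was the highest of its group in 196 of the 360 pairs of gene and group (54.4%), where replicate 1 was highest in 22.5% and replicate 3 in 22.8%. Over all fitted genes, replicate 2 was the highest in 33.1%. By role, replicate 2 led in 5 of 6 groups for the origin, nucleotide supply, G1/S, centromere and marker genes, in 4 for the mitotic cyclins and kinases, and in 2 for the polymerase, primase and clamp genes. The labels do not say what a replicate number stands for, and this pattern was found after the values were seen.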
